A study of Sus scrofa with 8 samples.

Results

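The genes described here are 10 components of TGF-beta and BMP signaling: the ligands TGFB1, TGFB2 and TGFB3, the receptors TGFBR1, TGFBR2, BMPR2 and BMPR1B, and the signal carriers SMAD2, SMAD3 and SMAD4. Their probes were found by gene symbol, either through the RefSeq accession that the array design gives for a probe or through symbols in tables of the study, and a probe had to be well above background on at least 1 array. Of the 10 genes, 9 had such a probe, out of 3828 genes that could be named on the array, and SMAD2 had no named probe and is not analysed here. The 9 genes were represented by 15 probes, 4 for SMAD4, 3 for TGFBR1, 2 for TGFB2 and 1 for each of the other 6 genes, and all 15 were well above background on all 8 arrays. For 7 probes, among them the only probes of TGFB2, TGFBR2 and BMPR2, the symbol came from the study's tables alone.

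Messenger RNA of whole lung was measured with Agilent 1-color arrays in Tibetan pigs, a breed of the plateau, and Duroc pigs, a lowland breed, each at a high and a low altitude. TH were Tibetan pigs kept at 3500 m and DL were Duroc pigs kept at 40 m, whereas TL were Tibetan pigs moved to 40 m and DH were Duroc pigs moved to 3500 m at 1 month of age. All pigs were female and were sampled at 6 months, with 2 arrays per group and 1 pig per array. The moved groups TL and DH shared 1 slide and the resident groups TH and DL shared the other slide.

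TGF-beta ligands are secreted in a latent form and, once released, bind the type II receptor TGFBR2, which recruits and activates the type I receptor TGFBR1. The activated type I receptor phosphorylates SMAD2 and SMAD3, which join SMAD4 and enter the nucleus to regulate transcription. BMP ligands use type II receptors such as BMPR2 with type I receptors such as BMPR1B and act through SMAD1, SMAD5 and SMAD9. In lung these pathways are known for their part in the growth of vessel walls and in matrix deposition, and inherited loss of BMPR2 function is a known cause of pulmonary arterial hypertension in people.

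Values are log2 expression, that is background-corrected and quantile-normalized spot intensity, and are compared between groups within a probe and never between probes. The breed effect is the mean of TH and TL minus that of DH and DL. The altitude effect sets TH and DH against TL and DL, and the interaction is the altitude difference in Tibetan pigs minus that in Duroc pigs. All were tested by limma with Benjamini-Hochberg adjustment over 34406 probes. SE and adjusted p rest on the spread between arrays of a group, and its part from variation between pigs was not tested. A probe was called at an FDR below 0.0001. Because the slides, the move and the interaction divide the arrays in the same way, these 3 cannot be told apart, and each comparison of TH with TL, DH with DL, TH with DH or TL with DL also crosses the slides. Breed and altitude effects are balanced over the slides. The paper names a farm in Yunnan for the high altitude and a farm in Guangdong for the low altitude, and no other site. Altitude therefore cannot be told apart from other differences between these sites. The TL arrays stood apart from the rest: r across probes was 0.930 to 0.949 between TL and the other groups, 0.970 to 0.977 among TH, DH and DL and 0.989 to 0.996 between the arrays of a group, and the median raw signal was 324 and 333.5 in TL against 207.5 to 230 elsewhere. Fewer cells of a type and less RNA per cell cannot be told apart in whole lung.

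Among the 3 ligands, TGFB1 and TGFB2 had lower values at high altitude and in Tibetan pigs, and TGFB3 rose at high altitude in Tibetan pigs. Of the receptors, TGFBR2 and 1 probe of TGFBR1 were called as rising from TL to TH. TGFBR2, BMPR1B, BMPR2 and the same probe of TGFBR1 were called as lower in TL than in DL, and BMPR1B fell from DL to DH. SMAD3 fell from TL to TH and was lower in TH than in DH. Of the 15 probes, 1 was called for breed, where the rate over all tested probes was 19.5%, and 1 for altitude, where that rate was 17.4%. The interaction was called for 4 of 15 against 21.1% of all probes, TH minus TL for 5 against 29.5%, and TL minus DL for 6 against 29.9%. DH minus DL was called for 1 of 15 against 3.07% and TH minus DH for 1 of 15 against 4.42%. None of these shares is read as particular to the genes.

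**Figure D1:**
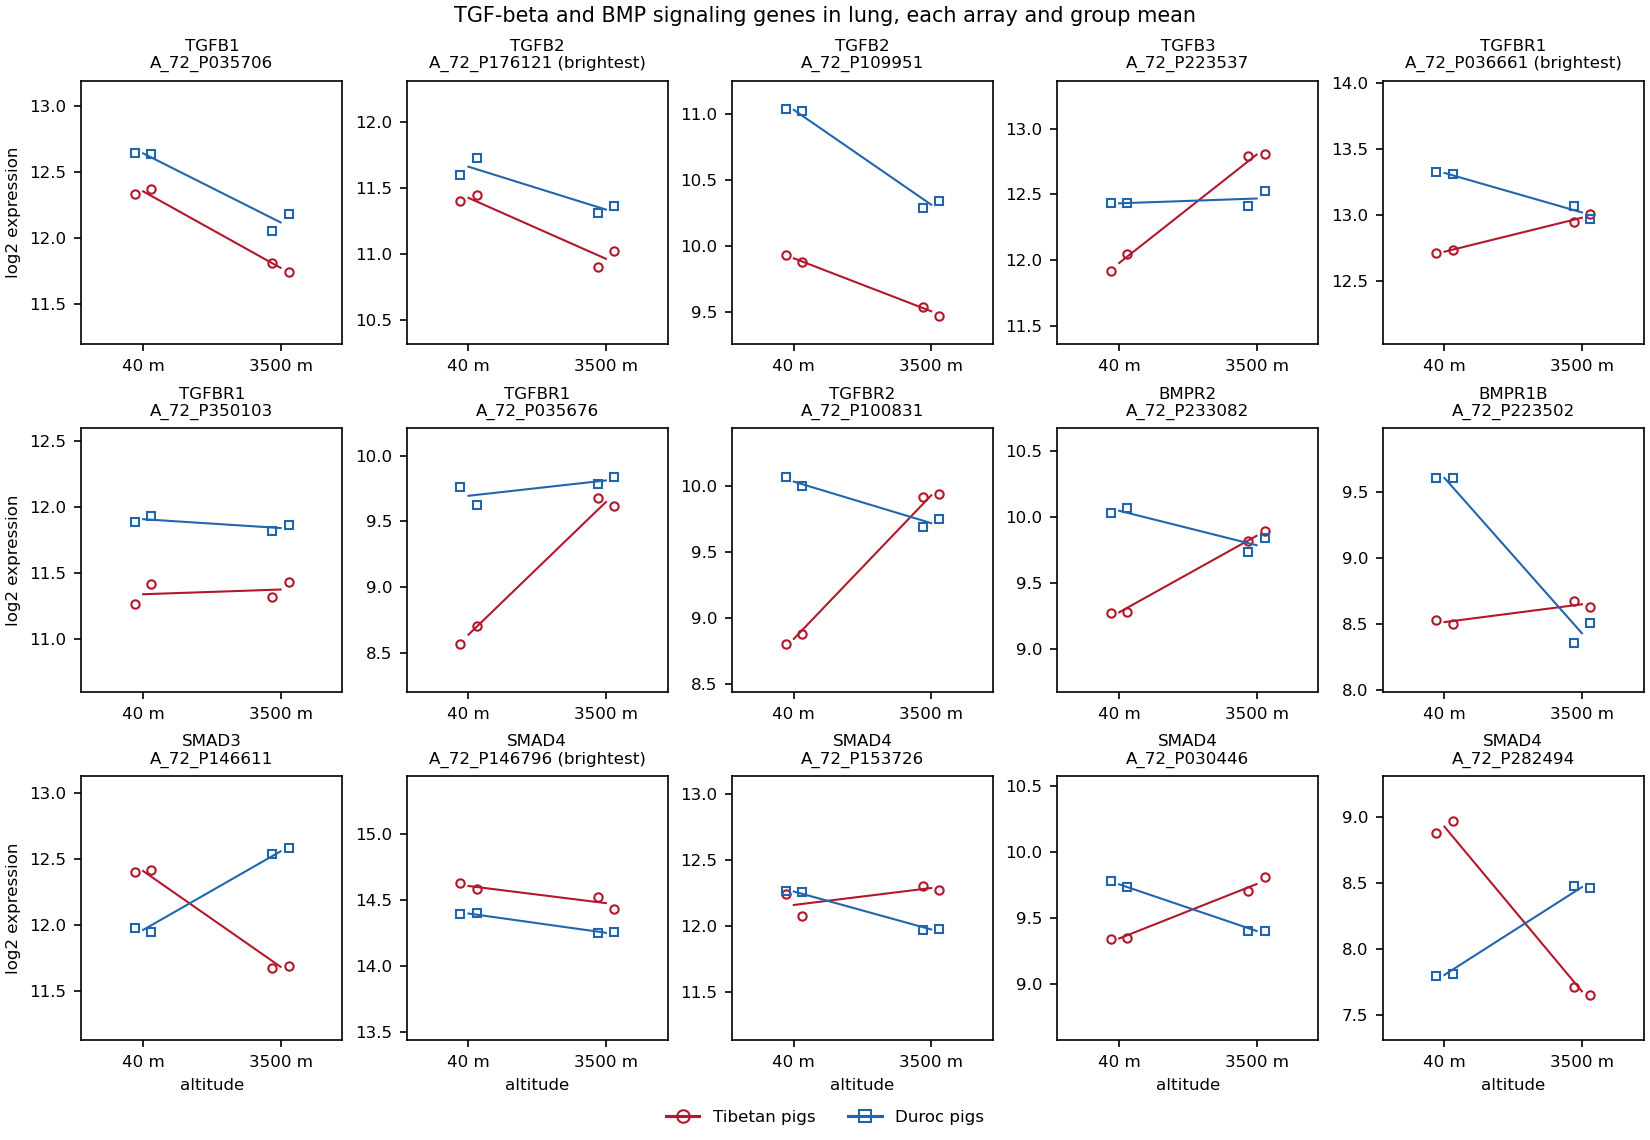
Log2 expression of the 15 probes in lung at 40 m and 3500 m, with circles for Tibetan and squares for Duroc pigs, 1 point per array and lines joining the group means. Every panel spans 2 log2 units. TGFB1 and TGFB2 slope downward in both breeds, TGFBR2 and BMPR2 slope upward in Tibetan and downward in Duroc pigs, and SMAD3 crosses the other way.

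TGFB1 encodes the most widely studied TGF-beta ligand. Its log2 expression was 11.80 and 11.74 in TH, 12.33 and 12.37 in TL, 12.05 and 12.18 in DH and 12.64 and 12.63 in DL. No 2 groups overlapped, and the order ran from DL through TL and DH to TH, with every neighbouring pair different at an adjusted p of 0.0125 or less in limma. The altitude effect was -0.55 ± 0.04 (SE; adjusted p = 1.16e-04) and the breed effect -0.32 ± 0.04 (adjusted p = 0.00101), neither of which passed the FDR of 0.0001. The difference between altitudes was -0.58 in Tibetan and -0.52 in Duroc pigs, and the interaction of -0.06 had a 95% confidence interval from -0.26 to 0.15. With 75th percentile scaling TL minus DH turned from 0.24 to -0.16 (adjusted p = 0.0142), so that TL lay below DH in the order. Under that scaling TH minus TL was -0.21 and DH minus DL -0.54, the interaction was 0.33, and the breed effect of -0.53 was called.

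TGFB2 encodes a ligand that binds the type II receptor poorly without the co-receptor TGFBR3. At its brightest probe (A_72_P176121) log2 expression was 10.90 and 11.02 in TH, 11.40 and 11.45 in TL, 11.30 and 11.36 in DH and 11.60 and 11.72 in DL. TH was lowest and DL highest, and TL and DH lay next to each other and differed by 0.09 (adjusted p = 0.283 in limma), which turned to -0.079 with 75th percentile scaling. The altitude effect of -0.39 and the breed effect of -0.30 were not called. The other probe (A_72_P109951) read 9.54 and 9.47 in TH, 9.94 and 9.88 in TL, 10.29 and 10.34 in DH and 11.04 and 11.03 in DL. All Tibetan arrays lay below all Duroc arrays, and within each breed the high altitude arrays lay below the low altitude arrays.

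That second TGFB2 probe was called for both balanced effects. The breed effect was -0.97 ± 0.03, a 1.95-fold lower level in Tibetan pigs (adjusted p = 8.71e-06 in limma), and the altitude effect was -0.56 ± 0.03, 1.47-fold lower at high altitude (adjusted p = 5.22e-05). It was also called for TL minus DL at -1.13, which is -0.94 less the median of all probes, and within the slide of the resident groups for TH minus DL at -1.53. Both probes thus had the same direction for breed and altitude, while the size of the breed effect differed between them.

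TGFB3 encodes the third ligand. Its log2 expression was 12.79 and 12.81 in TH, 11.92 and 12.04 in TL, 12.41 and 12.53 in DH and 12.43 and 12.43 in DL. Both TH arrays were the highest and both TL arrays the lowest of the 8, and DH and DL overlapped. TH minus TL was 0.82 ± 0.06, a 1.77-fold higher level (adjusted p = 9.74e-05 in limma), and 0.72 relative to the median of all probes. In Duroc pigs the difference between altitudes was 0.04 (95% confidence interval -0.12 to 0.20). The interaction of 0.78 was not called (adjusted p = 6.11e-04).

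**Figure D2:**
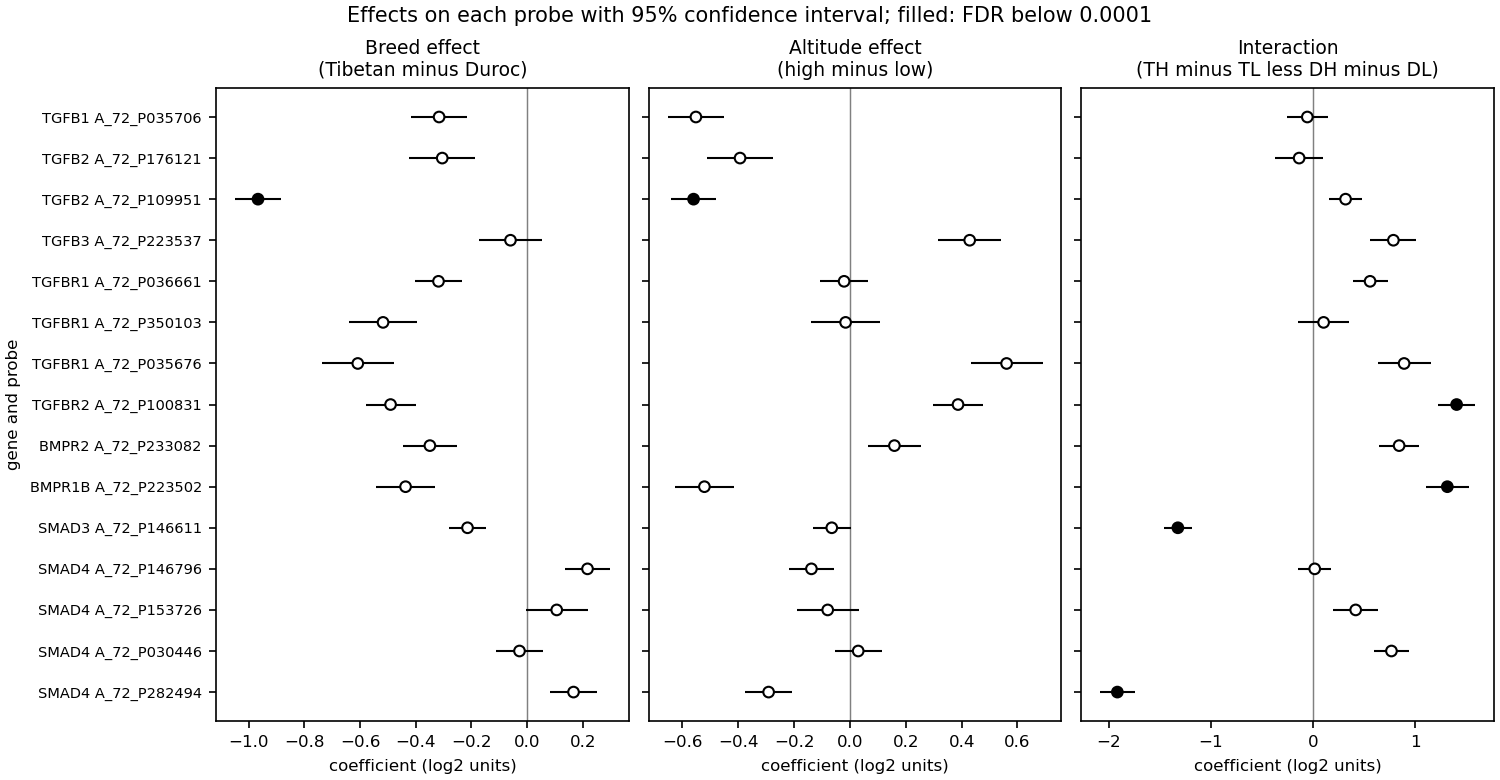
Coefficients of breed, altitude and their interaction in log2 units for the 15 probes, with 95% confidence intervals from limma; filled points passed an FDR of 0.0001. The breed coefficient lay below 0 for 12 of 15 probes, and the largest interactions were those of TGFBR2, BMPR1B, SMAD3 and 1 probe of SMAD4.

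TGFBR2, the type II receptor that binds TGF-beta ligands, had 1 probe. Its log2 expression was 9.92 and 9.94 in TH, 8.81 and 8.88 in TL, 9.69 and 9.75 in DH and 10.07 and 9.999 in DL. Both TL arrays lay below the other 6, and TH and DL differed by 0.10 (adjusted p = 0.137 in limma). The level was 2.13-fold higher in TH than in TL (1.09 ± 0.05, adjusted p = 1.36e-05) and 2.29-fold lower in TL than in DL (-1.19 ± 0.05, adjusted p = 9.67e-06). DH minus DL was -0.31 (adjusted p = 0.00391), and the interaction was 1.40 ± 0.07 (adjusted p = 2.59e-05). Relative to the medians of all probes, the interaction was 1.22, TH minus TL 0.99 and TL minus DL -1.004. Within the slide of the moved groups TL minus DH was called at -0.88.

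TGFBR1, the type I receptor of TGF-beta, was measured by 3 probes that differed in pattern. Only A_72_P035676 carries the RefSeq accession of the gene, and the symbols of the others came from the study's tables alone. The brightest (A_72_P036661) read 12.95 and 13.01 in TH, 12.71 and 12.74 in TL, 13.07 and 12.98 in DH and 13.33 and 13.31 in DL. TL was lowest and DL highest, and TH and DH overlapped. Its breed effect was -0.32 and its interaction 0.56, neither of them called. With 75th percentile scaling they were -0.53 and 1.00 and both were called, and the altitude effect turned from -0.02 to 0.18. The second (A_72_P350103) ranged from 11.27 to 11.43 in Tibetan and from 11.82 to 11.93 in Duroc pigs, without overlap between the breeds and with altitude differences of 0.04 and -0.07 within them. The third (A_72_P035676) was 9.68 and 9.61 in TH, 8.57 and 8.71 in TL, 9.78 and 9.84 in DH and 9.76 and 9.63 in DL. On it TL alone stood low, TH minus TL was 1.01 (adjusted p = 7.41e-05 in limma) and TL minus DL was -1.05 (adjusted p = 6.09e-05). Relative to the medians of all probes these were 0.91 and -0.87, and with 75th percentile scaling of the arrays neither passed, at 0.85 (adjusted p = 1.04e-04) and -0.79 (adjusted p = 1.37e-04). The breed effect was negative on all 3 probes, from -0.61 to -0.32.

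BMPR2, the type II receptor of BMP ligands, had log2 expression of 9.82 and 9.90 in TH, 9.28 and 9.28 in TL, 9.73 and 9.84 in DH and 10.03 and 10.07 in DL. Both TL arrays lay below the other 6, DL was the highest group, and TH and DH overlapped. TL minus DL was -0.77 ± 0.05, a 1.71-fold lower level (adjusted p = 6.52e-05 in limma), and -0.58 relative to the median of all probes. With the deposited log2 values (adjusted p = 1.13e-04) and with 75th percentile scaling, where it was -0.52, this difference did not pass. TH minus TL was 0.58 (adjusted p = 2.13e-04) and DH minus DL -0.26 (adjusted p = 0.00987), and the interaction of 0.84 was not called. TH minus DH was 0.07 (95% confidence interval -0.06 to 0.21).

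BMPR1B, a type I receptor of BMP ligands, differed from BMPR2 in its pattern. Its log2 expression was 8.67 and 8.63 in TH, 8.53 and 8.50 in TL, 8.35 and 8.50 in DH and 9.60 and 9.61 in DL. DL alone stood high, and the 6 other arrays lay within 8.35 to 8.67. The level in DH was 2.26-fold lower than in DL (-1.18 ± 0.06, adjusted p = 9.67e-05 in limma) and the level in TL 2.13-fold lower than in DL (-1.09 ± 0.06, adjusted p = 2.33e-05). TH minus TL was 0.13 (95% confidence interval -0.01 to 0.28) and -0.16 with 75th percentile scaling. The interaction was 1.31 ± 0.08 (adjusted p = 5.87e-05), or 1.13 relative to the median of all probes.

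SMAD3, which carries the signal of TGF-beta receptors, ran the other way from TGFBR2 and BMPR2. Its log2 expression was 11.68 and 11.69 in TH, 12.40 and 12.42 in TL, 12.54 and 12.58 in DH and 11.98 and 11.95 in DL. The 2 moved groups were high and the 2 resident groups low, with no overlap between any groups. TH minus TL was -0.73 ± 0.04 (1.65-fold lower in TH, adjusted p = 2.08e-05 in limma), TH minus DH was -0.88 ± 0.04 (1.83-fold lower, adjusted p = 5.11e-05), and the interaction was -1.32 ± 0.05 (adjusted p = 1.18e-05). DH minus DL was 0.60 and TL minus DL 0.45, and neither passed the FDR of 0.0001. With 75th percentile scaling TH minus TL was -0.33 and no longer called (adjusted p = 4.04e-04), TL minus DL was 0.01, and TH minus DH was -0.87 and called. Within slides TH minus DL was -0.28 and TL minus DH -0.15, and with 75th percentile scaling -0.32 and -0.54, the latter called.

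SMAD4, the partner shared by the TGF-beta and BMP branches, had 4 probes. The brightest (A_72_P146796) read 14.52 and 14.43 in TH, 14.63 and 14.58 in TL, 14.25 and 14.25 in DH and 14.39 and 14.40 in DL. All Tibetan arrays lay above all Duroc arrays, by a breed effect of 0.22 that was not called and that became -0.13 with 75th percentile scaling. The interaction at this probe was 0.02 (95% confidence interval -0.15 to 0.18). With that scaling TH minus TL was 0.59 and TL minus DL -0.47 here, both called and both opposite in sign to the values with quantile normalization, and the interaction was 0.68 and called. At A_72_P153726 no effect was called and the interaction was 0.42, which became 0.78 and was called with 75th percentile scaling. At A_72_P030446 the arrays read 9.71 and 9.81 in TH, 9.34 and 9.35 in TL, 9.40 and 9.40 in DH and 9.78 and 9.73 in DL, with the resident groups above the moved groups and an interaction of 0.77 (adjusted p = 2.07e-04 in limma).

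The dimmest SMAD4 probe (A_72_P282494) ran opposite to A_72_P030446. It read 7.71 and 7.65 in TH, 8.88 and 8.97 in TL, 8.48 and 8.46 in DH and 7.80 and 7.81 in DL, so that here the moved groups lay above the resident groups. TH minus TL was -1.25 (adjusted p = 7.05e-06 in limma), TL minus DL 1.12 (adjusted p = 9.93e-06) and the interaction -1.91 ± 0.07 (adjusted p = 7.88e-06). The symbol of this probe came from the study's tables alone, whereas the other 3 SMAD4 probes carry the RefSeq accession of the gene. The 4 probes of SMAD4 thus differed in direction.

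**Figure D3:**
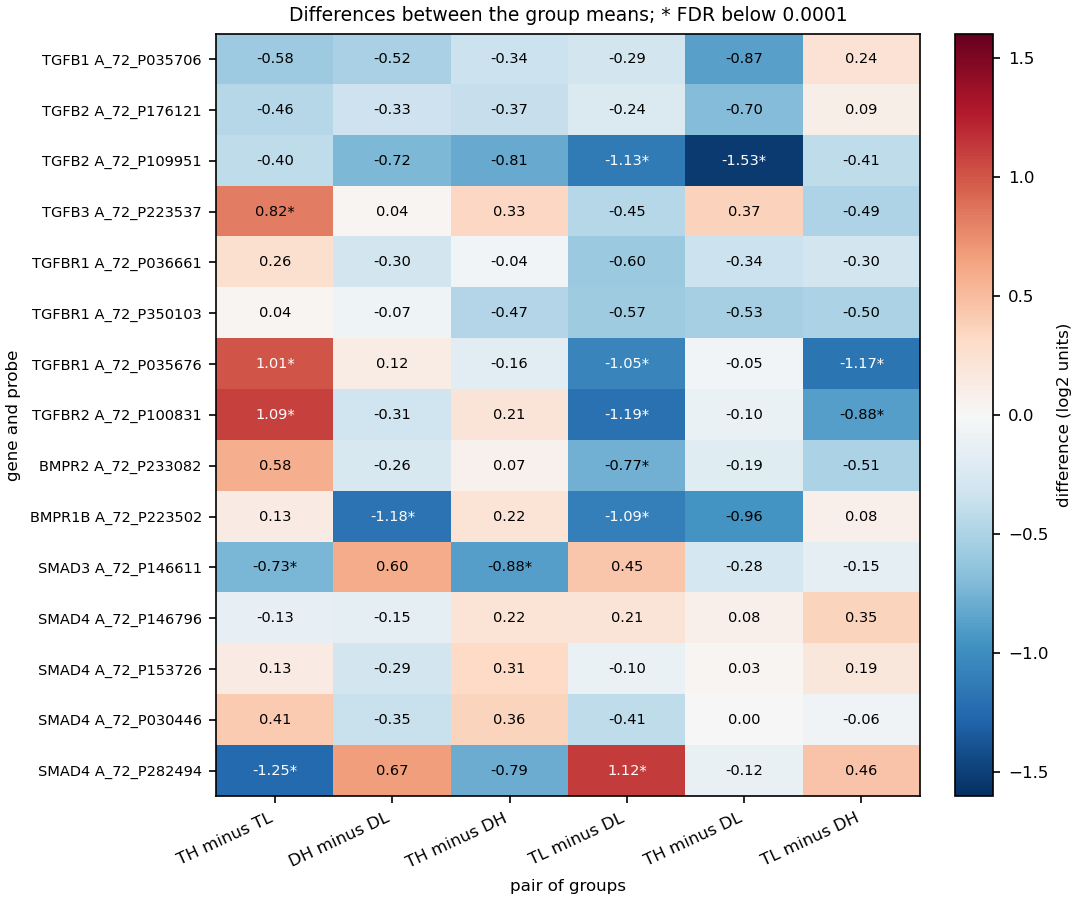
Differences between group means in log2 units for the 15 probes (rows) and the 6 pairs of groups (columns), with red for positive and blue for negative values and an asterisk at an FDR below 0.0001 in limma. The last 2 columns compare groups on the same slide, where TGFB2 (A_72_P109951) was called for TH minus DL, and TGFBR2 and TGFBR1 (A_72_P035676) for TL minus DH.

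Across the 15 probes the breed coefficient was negative for 12, with a median of -0.32 against -0.06 over all tested probes. At an FDR below 0.05 the counts were 12 of 15 for breed (67.7% of all probes), 10 for altitude (66.9%), 11 for the interaction (69.7%), 12 for TH minus TL (73.4%), 12 for DH minus DL (54.6%), 12 for TH minus DH (51.9%) and 14 for TL minus DL (74.4%). In DH minus DL 11 of 15 coefficients were negative, with a median of -0.29 against -0.02 over all probes. Both TL arrays lay below the 6 others for 6 of 15 probes, a pattern of 35.2% of all probes, and above them for 2 of 15 (26.7% of all probes). All Tibetan arrays lay below all Duroc arrays for 2 of 15 (13.4% of all probes) and above them for 1 (7.2%), and both TH arrays lay apart from both DH arrays for 13 of 15 (76.2%). Within slides, TH minus DL was called for 1 of 15 probes (6.47% of all probes) and TL minus DH for 2 of 15 (26.2%).

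The 7 contrasts gave 19 called coefficients on the 15 probes. All 19 kept an adjusted p below 0.05 in limma with any 1 array left out (highest 0.00145), but none stayed below 0.0001 in all 8 of these fits. Scaling each array to its 75th percentile instead moved the median of all tested probes from 0.19 to 0.33 for the interaction, from 0.10 to 0.23 for TH minus TL and from -0.19 to -0.30 for TL minus DL. All 19 kept their direction under it and 15 stayed called, and 14 of the 105 coefficients turned, the largest of them 0.22 in size. With the deposited log2 values none of the 105 turned, and the largest gap to the values above was 0.16.

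Beyond these genes, 91 others of the pathways were listed by role and 48 had a tested probe, each taken at its brightest. Of the 48, 5 were called up and 6 down for breed, 6 and 10 for altitude, and 11 and 3 for the interaction. TH minus TL gave 11 up and 9 down, DH minus DL 0 up and 5 down, TH minus DH 2 up and 1 down, and TL minus DL 5 up and 17 down. Over all 3828 named genes 34.1% were called for breed, 29.6% for altitude, 29.6% for the interaction, 41.8% for TH minus TL, 5.56% for DH minus DL, 11.1% for TH minus DH and 41.7% for TL minus DL. Naming bears on these rates, since the breed effect was called for 20.6% of genes named by RefSeq accession and for 44.6% of those named by the study's tables alone, tables that were used in part and are ordered by measured values. Among the 18 pathway genes named by RefSeq accession the calls were 2 up and 2 down for breed, 4 and 1 for the interaction, and 2 and 6 for TL minus DL. Over all 1666 genes so named, 7.0% were called up and 13.6% down for breed. The interaction was called up for 14.9% and down for 3.4% of them, and TL minus DL for 5.6% and 20.8%. None of these shares is read as particular.

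**Figure D4:**
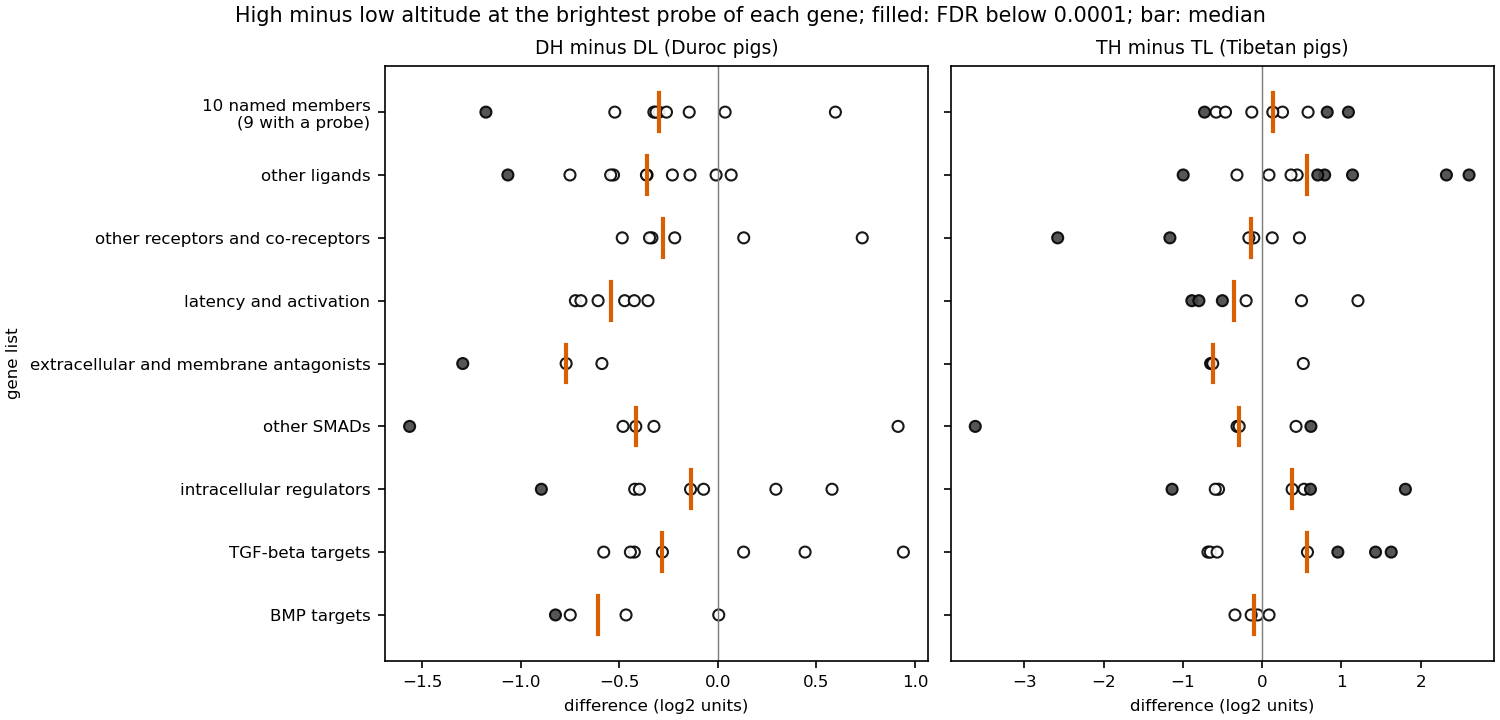
Difference between high and low altitude in log2 units in Duroc pigs (left) and Tibetan pigs (right), 1 point per gene at its brightest probe, by role in the pathway. Filled points passed an FDR of 0.0001 in limma and the bar is the median of the list; the axes differ in range. In Duroc pigs 0 of the 48 other genes were called up and 5 down, and in Tibetan pigs 11 up and 9 down.

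Of 10 other ligands tested, 7 were called lower in TL than in DL and 0 higher, with a median of -0.94. From TL to TH 5 were called as rising and 1 as falling. Over all named genes 28.7% were called lower and 13.0% higher in TL than in DL, with a median of -0.32. From TL to TH 27.6% of them were called as rising and 14.2% as falling, with a median of 0.29. These rates stand beside the counts of each role list, and no list is read as particular. BMP15, known as an oocyte growth factor, read 9.27 and 9.26 in TH, 6.69 and 6.62 in TL, 7.87 and 7.70 in DH and 8.14 and 8.16 in DL. It was higher in TH than in DH by 1.48 ± 0.07 and its interaction was 2.97 ± 0.09 (adjusted p = 5.89e-06 in limma), with TH highest and TL lowest. INHA, the alpha subunit of inhibin, rose by 2.32 from TL to TH at its brightest probe, and its 3 probes ranged from -0.09 to 2.32. BMP6 was lower in Tibetan pigs by a breed effect of -0.88, with values from 12.14 to 12.51 in Tibetan and from 13.07 to 13.31 in Duroc pigs. BMP3 fell from TL to TH by 0.995 at its brightest probe, a difference of -0.36 with 75th percentile scaling, and its other probe gave 0.10.

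Among 6 other receptors and co-receptors, 2 were called higher and 1 lower in TL than in DL. ACVR1, a type I receptor for activins and BMPs, read 8.31 and 8.49 in TH, 10.95 and 11.01 in TL, 8.82 and 8.73 in DH and 8.07 and 8.02 in DL. Both TL arrays stood above the others, and the interaction was -3.31 ± 0.10 (adjusted p = 5.55e-06 in limma), while the second ACVR1 probe gave -1.10. TGFBR3, the co-receptor that presents TGFB2, fell by 1.16 from TL to TH at its brightest probe, which was -0.40 with 75th percentile scaling, and its 4 probes ranged from -1.16 to 0.37. ACVR2B, a type II receptor of activins, had a called breed effect of -0.57 and was negative for breed on all 3 of its probes.

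Of 6 genes of latency and activation, 3 were called as falling from TL to TH and 0 as rising. DCN, a matrix proteoglycan that binds TGF-beta, was called higher in TL than in DL by 1.02, which was 0.42 with 75th percentile scaling, and its 5 probes ranged from -0.46 to 1.85. FBN1, a microfibril protein that anchors latent complexes, had an interaction of 1.22 and had a called TL minus DL of -0.77. THBS1, which can release latent TGF-beta, fell from TL to TH by 0.89 (-1.38 with 75th percentile scaling). ITGAV, an integrin subunit that takes part in the same release, was called at -0.50 for TH minus TL, which became 0.20 with 75th percentile scaling.

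Of 3 antagonists tested, 1 was called in DH minus DL. NOG, which binds and blocks BMP ligands, read 8.18 and 8.26 in TH, 7.70 and 7.70 in TL, 8.32 and 8.34 in DH and 9.66 and 9.60 in DL. As for BMPR1B, DL stood above all the others, and NOG fell from DL to DH by 1.30 ± 0.05 (adjusted p = 4.58e-05 in limma). FST, which neutralizes activins, fell from TL to TH by 0.65 at its brightest probe, but this was -0.079 with 75th percentile scaling, and its 5 probes ranged from -0.66 to 0.27.

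All 5 other SMADs had a probe, and SMAD5 and SMAD6 had called interactions of opposite sign. SMAD5, a carrier of BMP signals, read 10.45 and 10.37 in TH, 9.78 and 9.80 in TL, 9.21 and 9.20 in DH and 10.79 and 10.74 in DL. The resident groups lay above the moved groups, the reverse of SMAD3, with DH minus DL at -1.56 ± 0.04 (adjusted p = 3.39e-05 in limma), TH minus DH at 1.21 and an interaction of 2.18. SMAD6, an inhibitor of BMP signals, read 10.93 and 10.82 in TH, 14.51 and 14.48 in TL, 10.68 and 10.73 in DH and 9.77 and 9.82 in DL. TL stood far above the rest, and the interaction was -4.53 ± 0.07 (adjusted p = 2.05e-06). SMAD1 was called only for TL minus DL, at -0.66 (-1.03 with 75th percentile scaling), and SMAD7 and SMAD9 were called for none of the 7 contrasts. SMAD5 and SMAD6 were each measured by 1 probe whose symbol has no RefSeq accession behind it.

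Of 7 intracellular regulators, 2 were called as rising and 1 as falling from TL to TH. TGIF1, a corepressor of SMAD transcription, rose by 1.81, and NEDD4L, a ubiquitin ligase for activated SMADs, fell by 1.14 in Tibetan pigs and by 0.90 in Duroc pigs. FKBP1A, which binds type I receptors, had a called altitude effect of 0.55, and TGFBRAP1 rose from TL to TH by 0.61, and with 75th percentile scaling these were 0.89 and 1.05. Of 7 TGF-beta targets, 3 were called as rising from TL to TH and 0 as falling. COL1A1 and COL1A2, the chains of type I collagen, rose by 1.43 and 1.63 at their brightest probes, and the 5 probes of COL1A2 ranged from -1.88 to 1.63. TAGLN, a smooth muscle gene, rose by 0.96. Of 4 BMP targets, ID4 alone was called, falling by 0.82 from DL to DH (adjusted p = 8.90e-05 in limma). Its TL minus DL of -0.83 (adjusted p = 1.52e-05) and its interaction of 0.91 were called too. The DL arrays, at 12.29 and 12.30, stood above all the others.

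The genes whose log2 expression over the 8 arrays was most like that of a ligand or type II receptor were sought among the brightest probes of 3820 other genes. TGFB1 was most like PTGS1 (r = 0.995), AQP1 (0.991) and DLC1 (0.991), which were highest in DL and lowest in TH as well. TGFB2 was most like ARL3, PKN2 and MET, each at 0.980. TGFB3 was most like MGAT1 (0.992), PSMB8 and IMPDH1 (both 0.991). TGFBR2 was most like APCS (0.999), MED23 (0.997) and HACD4 (0.996), and BMPR2 most like TNKS2 (0.993), BCL2L14 and MARCH1 (both 0.991). All these genes share the same 8 arrays, and the 100th gene in each order still had r of 0.892 to 0.977.

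Markers of lung cell types were summed on the linear intensity scale over the brightest probe of each gene. Alveolar type II markers, 5 of 8 with a probe and all above background, summed to 910062 to 916204 in TH, 1165250 to 1228640 in TL, 1128310 to 1188260 in DH and 1030720 to 1079190 in DL. Endothelial markers, 6 of 8, were 260359 to 278600 in TH, 311602 to 314698 in TL, 351315 to 352929 in DH and 377177 to 382122 in DL, and so were lower in Tibetan pigs. The breed effects of TGFB1, TGFB2 and TGFBR1 were negative too, but none was called at the brightest probe. TL lay above DH for TGFB1 (12.35 against 12.12) and at the brightest probe of TGFB2 (11.42 against 11.33). With 75th percentile scaling TL minus DH was -0.16 for TGFB1 and -0.079 at that probe of TGFB2. The other probe of TGFB2 (A_72_P109951), which was called for breed, had TL below DH (9.91 against 10.31). Fibroblast markers, 6 of 8, had group means of 275763 in DL, 192399 in DH, 269201 in TL and 295726 in TH. Smooth muscle markers, 4 of 8, had 218220, 174709, 181768 and 172869 in the same order. The members disagreed, since MYH11 and DES were highest in DL, as was BMPR1B. In contrast, TAGLN was highest in TH (12.55 against 12.08 in DL) and CNN1 in TL (15.82 against 15.73 in DL). Leukocyte markers, 6 of 8, had 122008, 160630, 139563 and 129845. Skeletal muscle markers, of which 9 of 10 had a probe and 5 were above background on all arrays, had 4256, 7279, 5505 and 7397. This sum was higher at high altitude in both breeds, but not every member followed it. ACTA1 was lower at high altitude in Tibetan (-0.28) and Duroc pigs (-1.24). MYH7 was lower in TH than in TL (-0.62), and TNNC2 was lower in DH than in DL (-0.23). The part of these shifts in the results above was not tested.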

How the data were processed

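Lung RNA of 8 pigs, 2 each of TH, TL, DH and DL, was hybridised to Agilent porcine arrays. The authors extracted spots with Feature Extraction (10.7.3.1 per the file headers and 9.1 per the labels' processing notes) and deposited raw spot intensity and a table of log2 values, each column with a median of 7.40. The deposited log2 table followed the processed signals (rho at least 0.99998703), and its values at equal rank differed by at most 0.00209 between arrays, as after quantile normalization. The study's methods name Robust Multichip Analysis (RMA) without its input signal or settings.

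Median spot signals were corrected by normexp (offset 0), quantile normalized and taken as log2, without control spots and 12 to 44 outlier spots per array, and spots of 1 probe were averaged. The 34406 of 43603 probes well above background on at least 1 array were fitted by limma 3.58.1 (R 4.3.3) as 4 group means, with Benjamini-Hochberg adjustment at FDR 0.0001; no spot was saturated. The fit was tested on simulated data of 34270 probes, where 140 of 200 interactions of 4 log2 units were recovered with 0 false calls. The number of arrays limits the precision, and 41 probes printed in 5 spots differed by a median of 0.146 between arrays of a group and 0.162 within an array. For these probes arrays of a group, each from a different pig, thus differed no more than repeat spots of an array. How much of the spread behind the SE and adjusted p is variation between pigs was not tested.

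Symbols came from RefSeq accessions (2683 probes) and the study's tables (3655), with 98.0% the same among 660 named by both. All members are described at every probe, brightest first. Of other pathway genes, up to 4 per list were named, the 2 highest and 2 lowest in TH minus DH among those called in any of 7 contrasts; genes most alike were the 3 with the highest Pearson r. One gene within that rule is not reported here. SMAD7 and SMAD9 were named outside that rule, after their values were seen. Members and lists were chosen with earlier results of these data known. Alternatives covered scaling, local background, deposited values, filters on dim probes, the variance model, the threshold, blocks, naming and each array left out; comparisons within slides, naming by RefSeq alone and values relative to the median were added after seeing the data. Python 3.11.15, pandas 2.3.3, numpy 2.4.6 and matplotlib 3.10.9 were used for summaries and figures.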

Additional observations from a re-analysis of the deposited data

Results flagged for a closer look

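The effect of altitude differed between the breeds, by limma's test of the interaction with Benjamini-Hochberg adjustment, for 4 of the 15 probes, against 21.1% of all tested probes. The interaction was 1.40 for TGFBR2, where TH minus TL was 1.09 and DH minus DL -0.31. It was 1.31 for BMPR1B, where TH minus TL was 0.13 and DH minus DL -1.18. It was -1.32 for SMAD3, where TH minus TL was -0.73 and DH minus DL 0.60. For the SMAD4 probe A_72_P282494 it was -1.91, with -1.25 in Tibetan and 0.67 in Duroc pigs, while the other 3 SMAD4 probes gave 0.02 to 0.77. For all 4 the interaction cannot be told apart from the slide or from the move at 1 month of age.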

How the results depend on the processing

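In the order breed, altitude, interaction, TH minus TL, DH minus DL, TH minus DH and TL minus DL, the 15 probes gave 1, 1, 4, 5, 1, 1 and 6 calls. These stand against 6705, 5989, 7256, 10162, 1057, 1520 and 10280 calls over all 34406 tested probes. For each setting below, the counts over all tested probes likewise follow those of the 15 probes. Scaling to the 75th percentile gave 7, 4, 8, 7, 3, 3 and 10, against 11430, 10455, 11142, 14498, 4019, 3546 and 15159. Local background with an offset of 50 gave 7, 6, 6, 7, 3, 2 and 8, against 9912, 9905, 9971, 12878, 3813, 3861 and 12752. The deposited log2 values gave 4, 5, 4, 6, 3, 3 and 5, against 9424, 9041, 9786, 12777, 3424, 3211 and 12906. For probes above background on both arrays of a group the counts were 3, 3, 4, 5, 3, 3 and 8. All 31689 such probes gave 8525, 7940, 8997, 11996, 2361, 2540 and 12125. For probes above it on all 8 arrays the counts were 7, 7, 8, 9, 4, 3 and 10. All 24775 such probes gave 10624, 10677, 10816, 13383, 5231, 4801 and 13504. Without a filter the counts were 1, 0, 3, 3, 0, 0 and 4. All 43603 probes then gave 5017, 4096, 5684, 8433, 277, 861 and 8527. Without moderated variances the counts were 1, 0, 2, 2, 0, 0 and 3, against 1682, 1027, 2266, 4214, 0, 134 and 4356. An intensity trend gave 7, 6, 8, 8, 4, 3 and 9, against 10498, 10163, 10729, 13628, 4718, 4413 and 13781. At an FDR of 0.05 the counts were 12, 10, 11, 12, 12, 12 and 14, with the shares of all probes given above. None of these counts is read as particular to the genes. The causes of these shifts were not tested.

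With 1 array left out, which leaves fewer samples, calls ranged from 0 to 1 for breed, 0 to 0 for altitude, 0 to 1 for the interaction, 0 to 2 for TH minus TL, 0 to 0 for DH minus DL, 0 to 0 for TH minus DH and 0 to 4 for TL minus DL. Each of the 8 arrays ended calls in this way. The calls over all probes fell in each of these fits as well, and the ranges are not read as particular to the genes. The TGFB2 breed call (A_72_P109951) remained only without TH replicate 1 or 2.

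The replicate numbers did not pair the samples, since the deviations of same-numbered arrays correlated at -0.07 to 0.15. With the replicate number as a block the counts were 1, 0, 1, 1, 0, 0 and 3. All tested probes gave 2088, 642, 3184, 5404, 0, 81 and 5548 with this block. With the slide as a block breed and altitude each had a count of 1, and all tested probes gave 6705 and 5989, as in the main values. Because the slide divides the arrays in the same way as the interaction, this fit could only return the main breed and altitude results. It therefore does not test whether these calls depend on the slide. The other contrasts could not be fitted with this block.

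With 75th percentile scaling these coefficients at the brightest probe turned: the interaction of TGFB1 (0.33) and TGFB2 (0.035), the altitude effect of TGFBR1 (0.18), SMAD3 (0.11) and SMAD4 (0.25), the breed effect of SMAD4 (-0.13), and TH minus TL of BMPR1B (-0.16) and SMAD4 (0.59) and TL minus DL of SMAD4 (-0.47). Of these, the 2 last of SMAD4 passed the FDR of 0.0001 after turning (adjusted p = 1.35e-05 and 3.02e-05 in limma). TL minus DH turned for 5 of the 15 probes and TH minus DL for 1. Coefficients near 0 also turned with 1 array left out, with ranges of -0.12 to 0.0076 for the TGFB1 interaction, -0.023 to 0.096 for TGFB3 in DH minus DL, -0.044 to 0.0021 for the TGFBR1 altitude effect, -0.086 to 0.0062 for TGFBR1 in TH minus DH and -0.030 to 0.061 for the SMAD4 interaction.

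The scaling also moved the balance of calls over all probes. Positive calls were 43.8% of the interaction calls in the main values and 58.4% with 75th percentile scaling, 54.2% and 42.2% for breed, 51.4% and 64.1% for altitude, 50.4% and 62.3% for TH minus TL, and 49.2% and 37.9% for TL minus DL.

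Under the settings of this paragraph, calls among the 48 other pathway genes rose or fell together with those over all probes. None of their counts is read as particular to these genes. In the main values the calls, in the same order, numbered 11, 16, 14, 20, 5, 3 and 22. They were 26, 24, 22, 23, 15, 8 and 35 with 75th percentile scaling, 19, 26, 22, 28, 14, 6 and 25 with the deposited log2 values, and 5, 5, 7, 8, 0, 0 and 13 without moderated variances. With 1 array left out they ranged from 0 to 4, 0 to 0, 2 to 6, 3 to 12, 0 to 0, 0 to 0 and 4 to 15, and with the replicate number as a block they were 3, 0, 6, 9, 0, 0 and 12.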
